A study of Mus musculus with 18 samples.

Results

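The genes described here are the 20 cytosolic aminoacyl-tRNA synthetase genes and 18 further genes of the amino acid response, found by their symbols among the 24360 rows of each of the 2 count tables deposited for the mouse mammary tumour cell lines 168FARN and 67NR. All 38 were present in both tables and all 38 passed edgeR's filter on low counts in both lines. They are given in 3 groups: 20 synthetases, 9 amino acid enzymes and transporters, and 9 stress factors and effectors.

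RNA-seq covered 3 genotypes of each line, WT, *Kmt2c* KO and *Kmt2d* KO, with 3 replicates of each and 18 libraries in all. *Kmt2c* and *Kmt2d* encode histone H3 lysine 4 methyltransferases, and the study asked what their loss changes in lines that do not metastasize. KO cells were made with a pool of sgRNAs against exon 1 and transiently expressed Cas9 and were kept as sorted pools rather than clones. In 168FARN the WT columns bear the name of a control sgRNA, and in 67NR they are called WT. All cells were grown in DMEM with serum, glutamine and non-essential amino acids. The study defined replicates as collections of a line separated by a passage, so p-values measure the spread between collections of the same cells.

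Aminoacyl-tRNA synthetases load each amino acid onto its tRNA, and several of them sit together in the multi-synthetase complex. When amino acids run short, uncharged tRNA activates the kinase GCN2, and when proteins misfold in the endoplasmic reticulum the kinase PERK is activated. Both phosphorylate the translation factor eIF2α, which lowers protein synthesis overall but raises translation of the transcription factor ATF4. ATF4 then induces synthetases, amino acid enzymes and transporters, and stress factors such as DDIT3 (CHOP). ATF4 is controlled largely at translation, and mRNA counts measure only the transcripts.

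Library totals, as reads assigned to genes, ran from 14359760 to 43427382 in 168FARN and from 40951775 to 79251530 in 67NR. The 38 genes took 0.814% to 1.22% of these counts in 168FARN and 0.347% to 1.39% in 67NR. No fall in the mRNA of the targeted gene was called: KMT2C in its own KO differed from WT by -0.18 on the log2 scale (standard error 0.49) in 168FARN and by 0.63 (0.14) in 67NR, and KMT2D by 0.71 (0.36) and 0.22 (0.23). The rise of KMT2C in 67NR was called by edgeR (adjusted p = 0.0067), as was that of KMT2D in 168FARN with replicate number as a block (0.66, adjusted p = 0.0062). These counts therefore did not check the genotype labels. Of 6 epithelial markers, 1 averaged above 1 CPM in 168FARN WT cells, where EPCAM and CLDN7 had no reads, and 6 in 67NR WT cells. Their summed level in 67NR was 2106 to 3408 CPM for WT, 467 to 796 CPM for *Kmt2c* KO and 789 to 1580 CPM for *Kmt2d* KO cells. Of 6 mesenchymal markers, 5 averaged above 1 CPM in 168FARN WT cells and 6 in 67NR WT cells. In 168FARN they summed to 7890 to 10032.5 CPM for WT, 9683 to 12908 for *Kmt2c* KO and 10610 to 14315 for *Kmt2d* KO. The sums in 67NR were 3469 to 6207 CPM for WT, 4941 to 7063 for *Kmt2c* KO and 4545 to 6698 for *Kmt2d* KO. Of 3 endothelial markers, none averaged above 1 CPM, and of 3 leukocyte markers 1 did, with a summed level of 2.80 to 91.6 CPM over all libraries.

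ATF4 binds with C/EBP partners to a composite element whose core can be written TGATGNAA, or TTNCATCA on the other strand. This motif was searched on both strands from 250 bases before to 50 bases after the annotated start site, in RefSeq promoters of GRCm38.p6. A promoter was present in that table for 30 of the 38 genes, and 11 of the 30 (36.7%) held the motif, compared with 1219 of the 27025 genes in the table (4.51%) and 1304 of its 32851 promoters (3.97%). Those 11 were AARS, GARS, IARS, TARS and YARS among the synthetases, ASNS and SLC7A11 among the enzymes and transporters, and CHAC1, TRIB3, VLDLR and NUPR1 among the stress factors. A match describes letters and is no measured binding site. Stretches upstream of 6 start sites are shown because their genes carry the contrasts described below. SLC7A11 had the largest fold change of the transporters in 67NR. NUPR1, CHAC1, ASNS and TARS were called in 67NR *Kmt2c* KO cells once replicate number was a block. AARS was not called in either KO. Capitals mark the motif on either strand, and each stretch is written 5′ to 3′ on the strand of its gene, ending at the base before the start site.
SLC7A11 (chr3:50443614-50443713, minus strand): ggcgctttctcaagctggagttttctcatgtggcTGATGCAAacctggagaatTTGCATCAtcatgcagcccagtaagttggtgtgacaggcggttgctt
NUPR1 (chr7:126625471-126625590, minus strand): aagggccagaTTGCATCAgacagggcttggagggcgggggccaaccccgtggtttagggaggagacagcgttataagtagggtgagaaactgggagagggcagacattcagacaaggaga
CHAC1 (chr2:119351042-119351241, plus strand): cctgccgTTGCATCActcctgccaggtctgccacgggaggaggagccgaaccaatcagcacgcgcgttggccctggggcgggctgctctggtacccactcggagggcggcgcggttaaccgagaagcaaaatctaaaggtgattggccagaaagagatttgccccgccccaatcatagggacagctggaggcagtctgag
ASNS (chr6:7693210-7693269, minus strand): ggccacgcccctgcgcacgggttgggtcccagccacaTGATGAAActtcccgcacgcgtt
TARS (chr15:11399659-11399718, minus strand): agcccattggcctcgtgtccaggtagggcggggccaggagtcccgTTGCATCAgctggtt
AARS (chr8:111033722-111033841, plus strand): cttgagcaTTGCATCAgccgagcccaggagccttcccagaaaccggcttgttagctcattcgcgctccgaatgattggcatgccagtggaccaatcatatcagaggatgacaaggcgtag
The stretch of SLC7A11 holds the motif in both orientations, 66 and 47 bases before the start, and the other 5 stretches hold it 1 time each, between 15 bases (TARS) and 193 bases (CHAC1) before it.

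Levels are given as CPM, counts scaled to a common library total, after TMM normalization within each line, and levels of different genes are compared only per kilobase of exon. Per kilobase, ATF4 was the most abundant of the 38 genes in WT cells of both lines, at 602 CPM per kb in 168FARN and 424 CPM per kb in 67NR. It was followed in 168FARN by DDIT3 (291 CPM per kb) and SARS, the seryl-tRNA synthetase (214 CPM per kb), and in 67NR by NUPR1, a small stress-induced nuclear protein (248 CPM per kb), and TARS, the threonyl-tRNA synthetase (216 CPM per kb). These ranks are of means of 3 replicates. In replicates 1, 2 and 3, DDIT3 stood at 684, 714 and 96.6 CPM in 168FARN WT cells. NUPR1 stood at 948, 738 and 138 CPM in 67NR WT cells, so neither rank describes replicate 3. The lowest were SLC7A11, the cystine-glutamate exchanger, in 168FARN (2.01 CPM per kb) and VLDLR, a lipoprotein receptor, in 67NR (1.55 CPM per kb). In bulk samples, fewer cells that express a gene and less of its RNA per cell cannot be told apart.

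Replicate 3 stood apart from replicates 1 and 2 in every genotype of both lines, and the members followed it. DDIT3, the stress transcription factor CHOP, stood at 684, 714 and 96.6 CPM in replicates 1, 2 and 3 of 168FARN WT cells, at 512, 550 and 68.8 CPM for *Kmt2c* KO and at 713, 675 and 63.9 CPM for *Kmt2d* KO cells. In 67NR the values were 191, 161 and 17.99 CPM for WT, 206, 189 and 40.4 CPM for *Kmt2c* KO and 239, 250 and 36.5 CPM for *Kmt2d* KO cells. Each replicate 3 thus lay below replicates 1 and 2 of all genotypes of its line, and averaged over genotypes the difference was 8.41-fold in 168FARN and 6.73-fold in 67NR. TRIB3, a pseudokinase induced by ATF4 and DDIT3, differed 7.28-fold and 7.25-fold, and NUPR1 7.07-fold and 5.54-fold.

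In all 3 genotypes, 8 of 9 stress factors were lower in replicate 3 than in both other replicates, in 168FARN as in 67NR, with median log2 differences of -1.45 and -2.07. The exception in 168FARN was CHAC1, a glutathione-degrading enzyme, whose WT value in replicate 3 (34.2 CPM) lay between the other 2. The exception in 67NR was CEBPB, the C/EBPβ transcription factor, which there was at 134, 120 and 135 CPM for WT cells.

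Counts of synthetases leaned opposite ways in the 2 lines, although AARS, SARS and YARS were lower and QARS was higher in both. In 168FARN 10 of 20 were higher in replicate 3 of every genotype and 3 were lower, whereas in 67NR 14 were lower and 1 was higher. PSAT1, the serine synthesis transaminase, stood at 166, 155 and 650 CPM in 168FARN WT cells but at 414, 491 and 159 CPM in 67NR WT cells. HARS had the largest difference among the synthetases, 5.26-fold in 168FARN, against 1.02-fold in 67NR, although 195 of its exonic bases lie over exons of *Hars2* on the opposite strand. Over the 38 members, 13 were below and 14 above in 168FARN and 29 below and 1 above in 67NR. Of all genes tested, 35% were below and 33.6% above in 168FARN, and 26.4% and 24.8% in 67NR, so the members' counts were near the background in 168FARN and above it for lower values in 67NR. Of the broader pathway, other ATF4 targets (13 of 23 in 168FARN and 19 of 24 in 67NR) and endoplasmic reticulum chaperones (9 of 17 and 15 of 17) were also lower in replicate 3. Leukocyte markers moved with it in 168FARN, where CD3E was at 0 and the summed level was 71.2 to 91.6 CPM in replicates 1 and 2 and 2.80 to 5.30 CPM in replicate 3. In 67NR the summed leukocyte level was 19.3 and 25.6 CPM in replicate 3 of *Kmt2c* and *Kmt2d* KO cells, against 64.6 to 82.2 CPM in their replicates 1 and 2, but 36.1 CPM in WT replicate 3 against 22.3 and 21.5 CPM. Epithelial markers were highest in replicate 3 of every group, as in 168FARN WT (124, 124 and 390 CPM) and 67NR WT cells (2224, 2106 and 3408 CPM). In 168FARN 1 of these 6 markers averaged above 1 CPM, and of the 3 leukocyte markers 1 did in every group of both lines. Those sums therefore mostly reflect single genes and not whole lists. Mesenchymal markers were lowest in replicate 3 of every 168FARN group and of 67NR WT cells (6207, 6082 and 3469 CPM). They were highest in replicate 3 of 67NR *Kmt2c* KO (5119, 4941 and 7063 CPM) and *Kmt2d* KO cells (4630, 4545 and 6698 CPM). The part of any of these lists in the differences of replicate 3 was not tested.

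**Figure D1:**
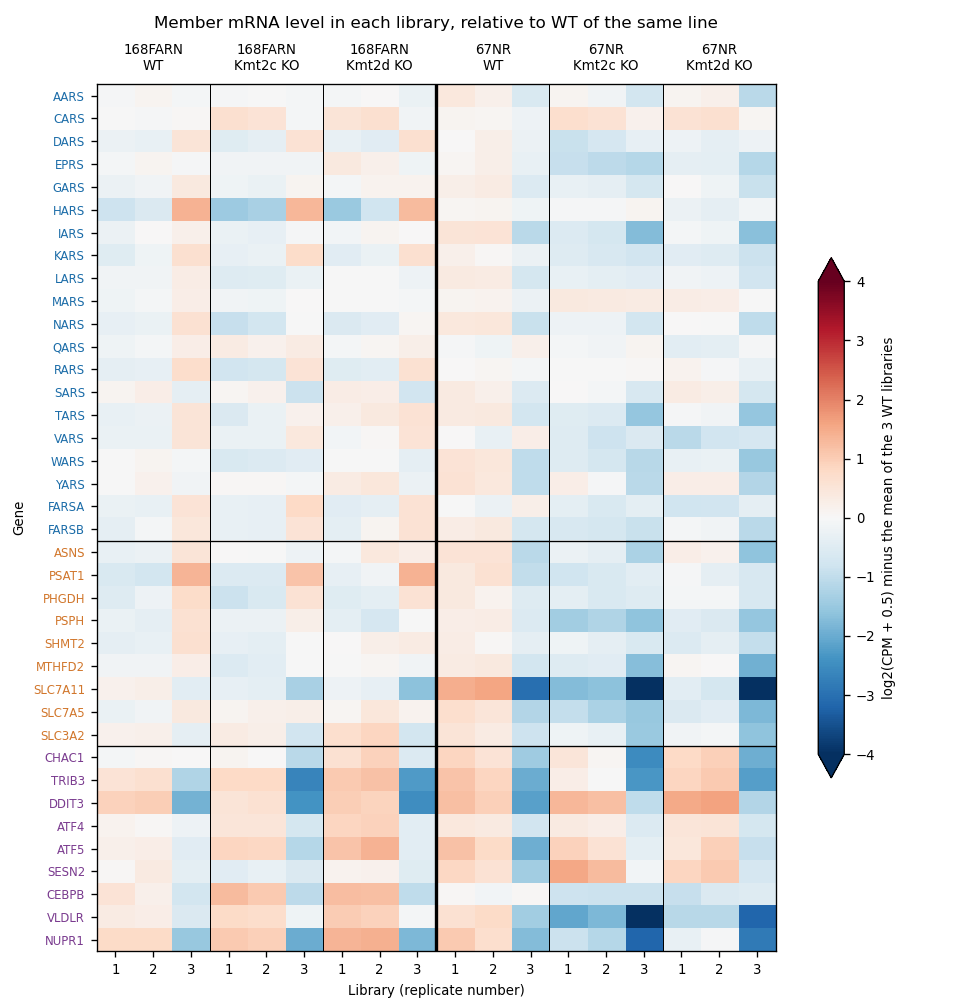
Level of each of the 38 genes (rows, label colour by group) in each of the 18 libraries (columns, replicate number below), as log2(CPM + 0.5) minus the mean of the 3 WT libraries of the same line, in colour from blue (lower) to red (higher), cut at 4 in either direction. Most stress factors at the bottom turn blue in each replicate 3, where DDIT3 stood at 17.99 CPM in 67NR WT cells. CHAC1 of 168FARN WT cells and CEBPB of 67NR WT cells do not. Many synthetases at the top turn red in replicate 3 of 168FARN, and most turn blue in replicate 3 of 67NR.

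**Figure D2:**
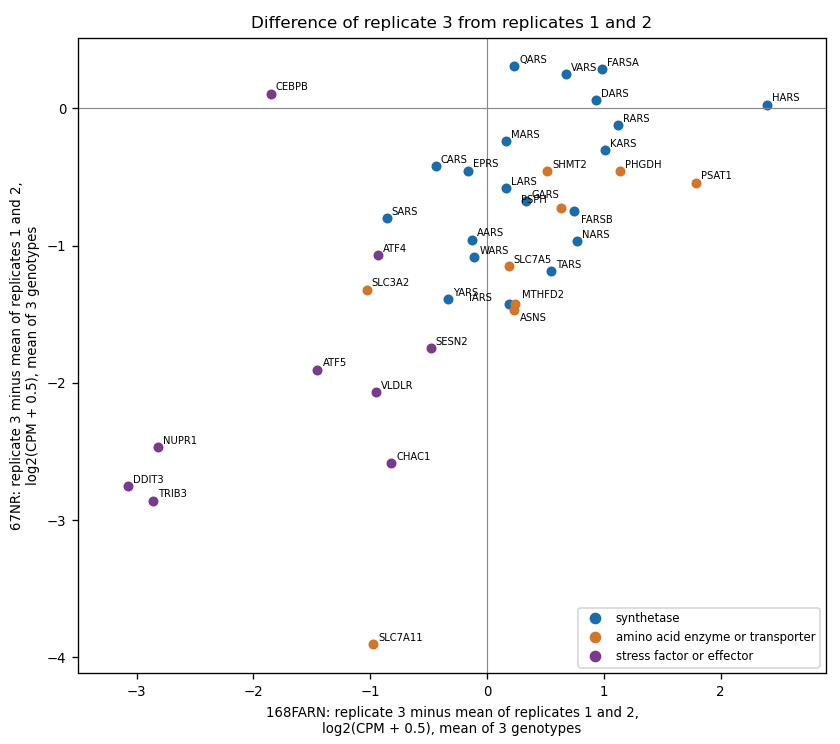
Difference of replicate 3 from the mean of replicates 1 and 2 for each gene, as log2(CPM + 0.5) averaged over the 3 genotypes, in 168FARN (horizontal axis) and 67NR (vertical axis). All 9 stress factors lie left of 0 and 8 of the 9 below it, with DDIT3 at -3.07 and -2.75, whereas most synthetases lie right of 0 in 168FARN and below 0 in 67NR.

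Because of this, each comparison is given from edgeR's quasi-likelihood test on genotype alone, and then with the replicate number as a block, which compares libraries of the same number. Both used all 9 libraries of a line, and genes were called at an adjusted p under 0.05.

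The first question was whether loss of *Kmt2c* or *Kmt2d* changed the members in 67NR. In *Kmt2c* KO cells 8 of 38 members fell and 0 rose, where 16.7% of all genes tested were lower and 17.5% higher, so the share that fell (21.1%) was close to the background. No member passed as higher with DESeq2 either. An unadjusted p under 0.05 was found for 13 of the 38 members and for 5956 of all 13665 genes tested, so the members had no excess. For *Kmt2d* KO, 4 fell and 0 rose (10.5%, against a background of 10.3% lower and 12.5% higher), with 0 higher by DESeq2. Here 7 of 38 members and 4756 of all 13665 genes had an unadjusted p under 0.05. The median log2 fold change of the members was -0.58 for *Kmt2c* KO and -0.41 for *Kmt2d* KO, beside -0.02 for all genes in each.

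With the block, 23 members were lower and 4 higher in *Kmt2c* KO cells (60.5% and 10.5%), against a background of 26.2% and 26.3%. For *Kmt2d* KO, 16 were lower and 2 higher (42.1% and 5.26%), against a background of 20.5% and 21.3%. Without replicate 3 in any group, 29 and 26 members were lower, where 30.2% and 25.4% of all genes were. When single libraries were left out of the fit with the block, 17 of the 23 and 13 of the 16 lower members passed in all 6 fits.

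Among the synthetases, 4 of 20 fell in 67NR *Kmt2c* KO cells and 3 of 20 in *Kmt2d* KO cells, with medians of -0.48 and -0.36. Of all genes tested, 16.7% and 10.3% were lower, so these counts were near the background. EPRS, which charges both glutamic acid and proline, stood at 932, 1025 and 715 CPM for WT, at 462, 430 and 399 CPM for *Kmt2c* KO and at 684, 673 and 403 CPM for *Kmt2d* KO cells. Every *Kmt2c* KO library lay below every WT library, and EPRS fell by 1.05 on the log2 scale (standard error 0.23, adjusted p = 0.0071). In *Kmt2d* KO cells its log2 fold change was -0.60 (0.23), with an adjusted p of 0.093, and -0.62 with the block (adjusted p = 0.0052). EPRS passed in *Kmt2c* KO cells whichever library was left out (adjusted p = 0.0040 to 0.031).

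VARS, the valyl-tRNA synthetase, was at 356, 286 and 424 CPM for WT, 246, 196 and 234 CPM for *Kmt2c* KO and 168, 208 and 221 CPM for *Kmt2d* KO cells. Neither KO overlapped WT, and the log2 fold changes were -0.66 (0.19, adjusted p = 0.024) and -0.84 (0.19, adjusted p = 0.012). KARS, the lysyl-tRNA synthetase, fell in both KOs as well, from 256, 232 and 189 CPM for WT to 155, 144 and 132 CPM for *Kmt2c* KO (-0.65, adjusted p = 0.016) and 163, 157 and 123 CPM for *Kmt2d* KO cells (-0.61, adjusted p = 0.029). The other calls were DARS in *Kmt2c* KO (-0.62, adjusted p = 0.028) and FARSA, a subunit of the phenylalanyl-tRNA synthetase, in *Kmt2d* KO cells (-0.65, adjusted p = 0.030). These calls rested on all libraries: DARS, KARS, VARS and FARSA each lost it when certain single libraries were left out, with adjusted p of up to 0.103 for DARS, 0.112 for KARS in *Kmt2d* KO, 0.0961 for VARS in *Kmt2c* KO and 0.115 for FARSA. The libraries were WT replicate 1 or *Kmt2c* KO replicate 2 or 3 for KARS and VARS and replicate 1 or 2 of either group for DARS in *Kmt2c* KO. Against *Kmt2d* KO they were any library but WT replicate 3 for KARS, *Kmt2d* KO replicate 1 for VARS, and WT replicate 1 or 3 or *Kmt2d* KO replicate 1 or 2 for FARSA. The overlap of VARS with a gene on the opposite strand (304 exonic bases) leaves its count uncertain, since the strand setting of the counting was not stated.

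With the block, 10 of 20 synthetases were lower and 2 higher in *Kmt2c* KO cells, where 26.2% of all genes were lower and 26.3% higher. In *Kmt2d* KO cells 7 were lower and 1 higher, where 20.5% and 21.3% of all genes were. IARS, the isoleucyl-tRNA synthetase, stood at 360, 371 and 120 CPM for WT and 172, 155 and 75.0 CPM for *Kmt2c* KO cells, so that each KO library was below the WT library of its number although the groups overlapped. Its log2 fold change was -1.08 (0.53) without the block (adjusted p = 0.15) and -0.997 (0.13) with it (adjusted p = 8.7e-05). TARS went from 686, 697 and 324 CPM to 381, 365 and 185 CPM for *Kmt2c* KO cells. Its log2 fold change was -0.87 without the block (adjusted p = 0.17) and -0.86 with it (adjusted p = 0.00021).

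CARS, the cysteinyl-tRNA synthetase, went the other way. It stood at 223, 217 and 181 CPM for WT, 325, 309 and 233 CPM for *Kmt2c* KO and 307, 319 and 216 CPM for *Kmt2d* KO cells, and all *Kmt2c* KO libraries lay above all WT libraries. The log2 fold changes of 0.48 and 0.44 did not pass without the block (adjusted p = 0.093 and 0.15) and passed with it (0.47 and 0.43, adjusted p = 0.0046 and 0.011), although the call in *Kmt2d* KO cells was lost without either of WT replicates 1 and 2 or without replicate 2 of the KO (adjusted p of up to 0.066). MARS did not pass without the block in *Kmt2c* KO cells (0.35, adjusted p = 0.11) and also passed with it (0.36, adjusted p = 0.020). This was lost without WT replicate 1, *Kmt2c* KO replicate 1 or *Kmt2c* KO replicate 3, with adjusted p of up to 0.097. QARS and RARS showed little difference, at -0.05 (0.17) and 0.01 (0.14) in *Kmt2c* KO cells.

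By place in the cell, 3 of 8 synthetases of the multi-synthetase complex fell in *Kmt2c* KO cells (DARS, EPRS and KARS) and 1 of 12 outside it. Of all genes tested, 16.7% were lower there. With the block the counts were 4 lower and 1 higher of 8, and 6 lower and 1 higher of 12, where 26.2% of all genes were lower and 26.3% higher. Without replicate 3 in any group, 5 of 8 and 10 of 12 were lower, so the order of the 2 sets was not kept. With *Kmt2d* KO, 1 of 8 and 2 of 12 fell (10.3% of all genes). With the block 3 of 8 were lower, and 4 of 12 lower and 1 higher (20.5% and 21.3% of all genes). Of 3 scaffold genes of the complex, *Eef1e1* fell in *Kmt2c* KO cells (-0.55, adjusted p = 0.018). Of 17 mitochondrial synthetases whose genes are not among the 20 members, 2 fell, *Yars2* (-0.78, adjusted p = 0.018) and *Iars2* (-0.58, adjusted p = 0.021), and the median of the 17 was -0.08. That list has no counterpart of GARS or KARS. Against this, in *Kmt2d* KO cells 0 scaffold genes and 0 mitochondrial synthetases were called, with 0 and 2 at an unadjusted p under 0.05. With the block these counts were 0 scaffold genes and 2 mitochondrial synthetases lower.

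Amino acid enzymes and transporters were lower in both 67NR KOs in mean, all 9 with a negative log2 fold change. Of the 9, 2 and 0 passed (medians -0.77 and -0.57), where 16.7% and 10.3% of all genes were lower. PSPH, which makes serine in the final step of its synthesis from glycolysis, stood at 121, 124 and 68.9 CPM for WT, 38.6, 43.2 and 32.6 CPM for *Kmt2c* KO and 73.5, 67.4 and 34.1 CPM for *Kmt2d* KO cells. No *Kmt2c* KO library reached a WT library, and PSPH fell by 1.46 on the log2 scale (0.32, adjusted p = 0.0070), a call kept whichever library was left out. In *Kmt2d* KO cells its log2 fold change was -0.84 (adjusted p = 0.088), and -0.86 with the block (adjusted p = 0.0012).

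SLC7A11, whose promoter stretch holds the motif in both orientations, had the largest fold change of the 38 genes in 67NR *Kmt2c* KO cells without the block. SLC7A11 stood at 451, 486 and 19.7 CPM for WT, at 49.0, 51.8 and 4.24 CPM for *Kmt2c* KO and at 123, 102 and 7.82 CPM for *Kmt2d* KO cells. Within each replicate number the KOs were below WT, but WT replicate 3 lay below replicates 1 and 2 of both KOs. Its log2 fold changes of -3.19 (1.33) and -2.04 (1.27) did not pass without the block (adjusted p = 0.095 and 0.30). With the block they were -2.93 (0.20, adjusted p = 4.97e-07) and -1.85 (0.19, adjusted p = 2.15e-05), and both calls stayed whichever library was left out of that fit.

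SLC7A5, the large neutral amino acid transporter, stood at 267, 236 and 73.7 CPM for WT and 86.8, 69.1 and 58.2 CPM for *Kmt2c* KO cells. It passed in *Kmt2c* KO cells (-1.43, standard error 0.48, adjusted p = 0.047) and lost the call when any library but WT replicate 3 was left out, with adjusted p of up to 0.145. SLC3A2, the heavy chain with which both SLC7A11 and SLC7A5 pair, stood at 448, 394 and 179 CPM for WT, 282, 257 and 113 CPM for *Kmt2c* KO and 288, 298 and 104 CPM for *Kmt2d* KO cells. It did not pass on genotype alone with all libraries and passed with the block (-0.65 and -0.61, adjusted p = 0.00077 and 0.0018).

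The block gave 8 of 9 lower in *Kmt2c* KO cells, all but PSAT1, and 6 of 9 in *Kmt2d* KO cells, all but ASNS, PSAT1 and PHGDH. Of all genes, 26.2% and 20.5% were lower with the block. ASNS, asparagine synthetase, was at 520, 519 and 169 CPM for WT and 301, 279 and 148 CPM for *Kmt2c* KO cells (-0.61 with the block, adjusted p = 0.0098, and up to 0.078 without single *Kmt2c* KO libraries). On genotype alone ASNS did not pass (-0.73, adjusted p = 0.35). MTHFD2, of the mitochondrial folate pathway, was at 247, 258 and 119 CPM for WT, 137, 143 and 59.4 CPM for *Kmt2c* KO and 205, 201 and 51.4 CPM for *Kmt2d* KO cells (-0.91 and -0.60 with the block, adjusted p = 0.0010 and 0.017). On genotype alone MTHFD2 passed in neither KO (-0.88 and -0.45, adjusted p = 0.25 and 0.61). The call of MTHFD2 in *Kmt2d* KO cells was lost without *Kmt2d* KO replicate 3 (adjusted p = 0.094).

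Stress factors did not share a direction in 67NR. CEBPB and VLDLR fell in *Kmt2c* KO cells and CEBPB in *Kmt2d* KO cells, and the medians were -0.48 and -0.06. CEBPB was at 134, 120 and 135 CPM for WT, 72.4, 71.1 and 71.5 CPM for *Kmt2c* KO and 68.1, 86.9 and 90.8 CPM for *Kmt2d* KO cells, without overlap of either KO with WT. It fell by 0.85 (0.15, adjusted p = 0.0019) and by 0.66 (0.15, adjusted p = 0.011) on the log2 scale, and kept both calls whichever library was left out. Of its exonic bases, 20.7% lie over exons of *Tmem189* on the opposite strand.

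VLDLR stood at 20.0, 22.1 and 4.55 CPM for WT, 2.66, 3.30 and 0.339 CPM for *Kmt2c* KO and 5.63, 5.71 and 0.974 CPM for *Kmt2d* KO cells. It fell in *Kmt2c* KO cells (-2.88, standard error 0.92, adjusted p = 0.038), a call lost when any library but WT replicate 3 was left out (adjusted p of up to 0.099). With *Kmt2d* KO the log2 fold change was -1.92 (adjusted p = 0.16), and with the block both KOs passed (-3.03 and -1.996, adjusted p = 8.2e-07 and 2.6e-05). NUPR1, at 948, 738 and 138 CPM for WT, was at 250, 206 and 50.2 CPM for *Kmt2c* KO and 377, 442 and 64.7 CPM for *Kmt2d* KO cells. It did not pass without the block (-1.85 and -1.04, adjusted p = 0.14 and 0.44) and passed with it, at -1.74 and -1.05 (adjusted p = 4.3e-06 and 0.00031).

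ATF4 itself stood at 919, 874 and 400 CPM for WT, 870, 832 and 474 CPM for *Kmt2c* KO and 960, 973 and 419 CPM for *Kmt2d* KO cells. Its log2 fold changes with the block were 0.03 (0.13) and 0.10 (0.13), with adjusted p of 0.84 and 0.57. CHAC1 and TRIB3 were lower with the block in *Kmt2c* KO cells (-0.66 and -0.69, adjusted p = 0.0092 and 0.0045) and at -0.07 and -0.09 in *Kmt2d* KO cells (adjusted p = 0.79 and 0.70). On genotype alone neither passed in *Kmt2c* KO cells (adjusted p = 0.73 and 0.55). Without the block, the log2 fold change of CHAC1 in *Kmt2c* KO cells was -0.48 and turned to 0.014 without *Kmt2c* KO replicate 3.

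DDIT3 and SESN2, a leucine sensor that restrains mTORC1, were on the other side. SESN2 stood at 25.3, 21.5 and 5.07 CPM for WT and 42.5, 34.9 and 13.2 CPM for *Kmt2c* KO cells, each KO library above the WT library of its number. It did not pass on genotype alone (0.81, adjusted p = 0.39) and passed with the block (0.92, adjusted p = 0.00090). DDIT3 passed in neither KO on genotype alone (adjusted p = 0.87 and 0.75). With the block it passed in both KOs (0.49 and 0.63, adjusted p = 0.040 and 0.016). Both calls were lost in 3 of 6 fits that left out a library, namely without WT replicate 2, WT replicate 3 or *Kmt2c* KO replicate 3 and without any single *Kmt2d* KO library, with adjusted p of up to 0.199 and 0.093. The log2 fold change of DDIT3 without the block, 0.23 and 0.51, turned negative without WT replicate 3 (-0.28 and -0.0065). DDIT3 and MARS, both higher with the block in *Kmt2c* KO cells, share 68 exonic bases on opposite strands.

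**Figure D3:**
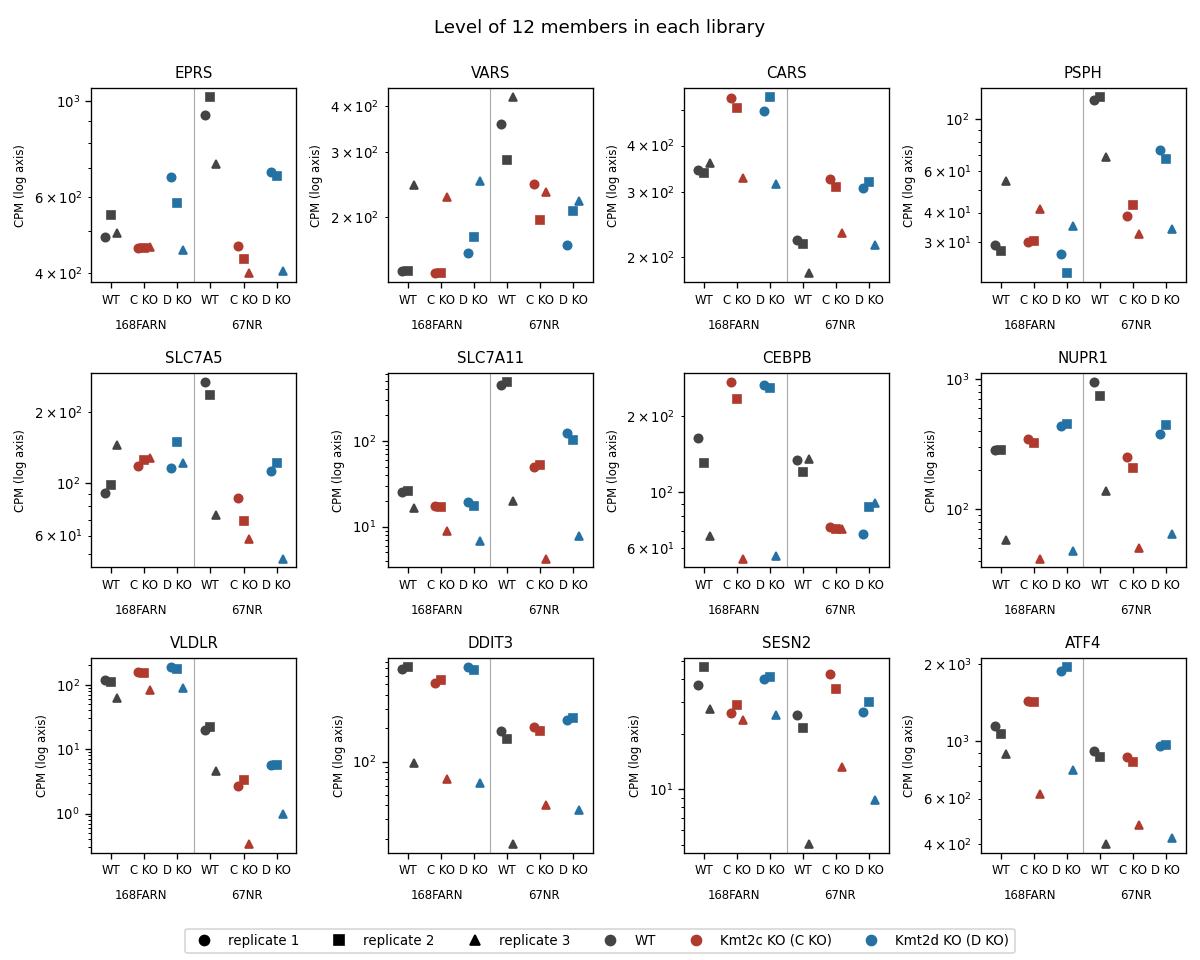
Level of 12 members in CPM on log axes in the WT, Kmt2c KO (C KO) and Kmt2d KO (D KO) libraries of 168FARN (left of each panel) and 67NR (right), with circles, squares and triangles for replicates 1, 2 and 3. EPRS, PSPH and CEBPB of 67NR Kmt2c KO cells lie below all WT libraries, while for SLC7A11, NUPR1 and VLDLR the lower level of the KOs shows within each replicate number, as the triangles of replicate 3 lie far below the rest.

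In 168FARN, edgeR called 0 of 38 members in either KO without the block, and 2 (*Kmt2c* KO) and 0 (*Kmt2d* KO) had an unadjusted p under 0.05. Of all 12253 genes tested, 725 and 647 had such a p. DESeq2 called 1 member, WARS, lower with *Kmt2c* KO and 0 with *Kmt2d* KO. Of all genes tested, 0.188% and 0.155% were called. The members' medians were -0.12 for *Kmt2c* KO and 0.05 for *Kmt2d* KO, beside 0.01 for all genes in each. With the block 4 were lower and 1 higher in *Kmt2c* KO cells and 1 lower and 1 higher in *Kmt2d* KO cells (13.2% and 5.26% of members, against backgrounds of 10.7% and 6.64%), so the shares were near the background.

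SLC7A11 was lower in both 168FARN KOs with the block. It stood at 25.3, 26.1 and 16.6 CPM for WT, 17.6, 16.9 and 8.83 CPM for *Kmt2c* KO and 19.4, 17.5 and 6.77 CPM for *Kmt2d* KO cells (-0.69 and -0.73, adjusted p = 0.016 and 0.018). Each call was lost in 2 of 6 fits with a library left out, without *Kmt2c* KO replicate 1 or 2 and without *Kmt2d* KO replicate 2 or 3 (adjusted p of up to 0.10 and 0.087). VLDLR was higher in both, opposite to 67NR, at 117, 111 and 61.6 CPM for WT, 160, 152 and 82.1 CPM for *Kmt2c* KO and 187, 176 and 88.2 CPM for *Kmt2d* KO cells (0.44 and 0.62 with the block, adjusted p = 0.014 and 0.0022). The VLDLR call in *Kmt2d* KO cells was kept in all 6 fits, and that in *Kmt2c* KO cells was lost without replicate 1 or 2 of WT or of *Kmt2c* KO cells (adjusted p of up to 0.11).

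The remaining calls with the block in 168FARN *Kmt2c* KO cells were NARS (-0.56, adjusted p = 0.0077), WARS (-0.53, adjusted p = 0.012) and SESN2 (-0.45, adjusted p = 0.040). WARS, which charges tryptophan, stood at 122, 132 and 116 CPM for WT and 79.8, 84.4 and 90.2 CPM for *Kmt2c* KO cells, without overlap. WARS and SESN2 lost the call without replicate 1 or 2 of either group (adjusted p of up to 0.11 and 0.25), and NARS without WT replicate 1 or *Kmt2c* KO replicate 2 (0.066).

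Without the block, counts in 168FARN were higher when replicate 3 was left out of all groups, though not when a single replicate 3 library was (0 calls in either KO). With the block, leaving out WT replicate 3 alone gave 7 higher and 6 lower members in *Kmt2c* KO and 14 and 2 in *Kmt2d* KO cells. Leaving out replicate 3 of the KO alone gave 2 higher and 10 lower in *Kmt2c* KO and 2 and 0 in *Kmt2d* KO cells. Without the block and without replicate 3 in all groups, 7 members were higher and 10 lower in *Kmt2c* KO and 15 higher and 1 lower in *Kmt2d* KO cells. There 29.5% and 21.1% of all genes were called in either direction. Of the 9 stress factors, 7 were then higher in *Kmt2d* KO cells. ATF4 stood there at 1882, 1946 and 775 CPM, against 1147, 1071 and 894 CPM for WT and 1439, 1429 and 627 CPM for *Kmt2c* KO cells, so that replicates 1 and 2 of *Kmt2d* KO were above and replicate 3 below WT. Its log2 fold change in *Kmt2d* KO cells was 0.80 without replicate 3 (adjusted p = 4.9e-05) and 0.44 with the block (adjusted p = 0.20). ATF5, a related factor, stood at 711, 856 and 244 CPM there against 375, 391 and 235 CPM for WT (a log2 difference of 1.04 without replicate 3, adjusted p = 1.6e-05, and 0.67 with the block, adjusted p = 0.12).

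**Figure D4:**
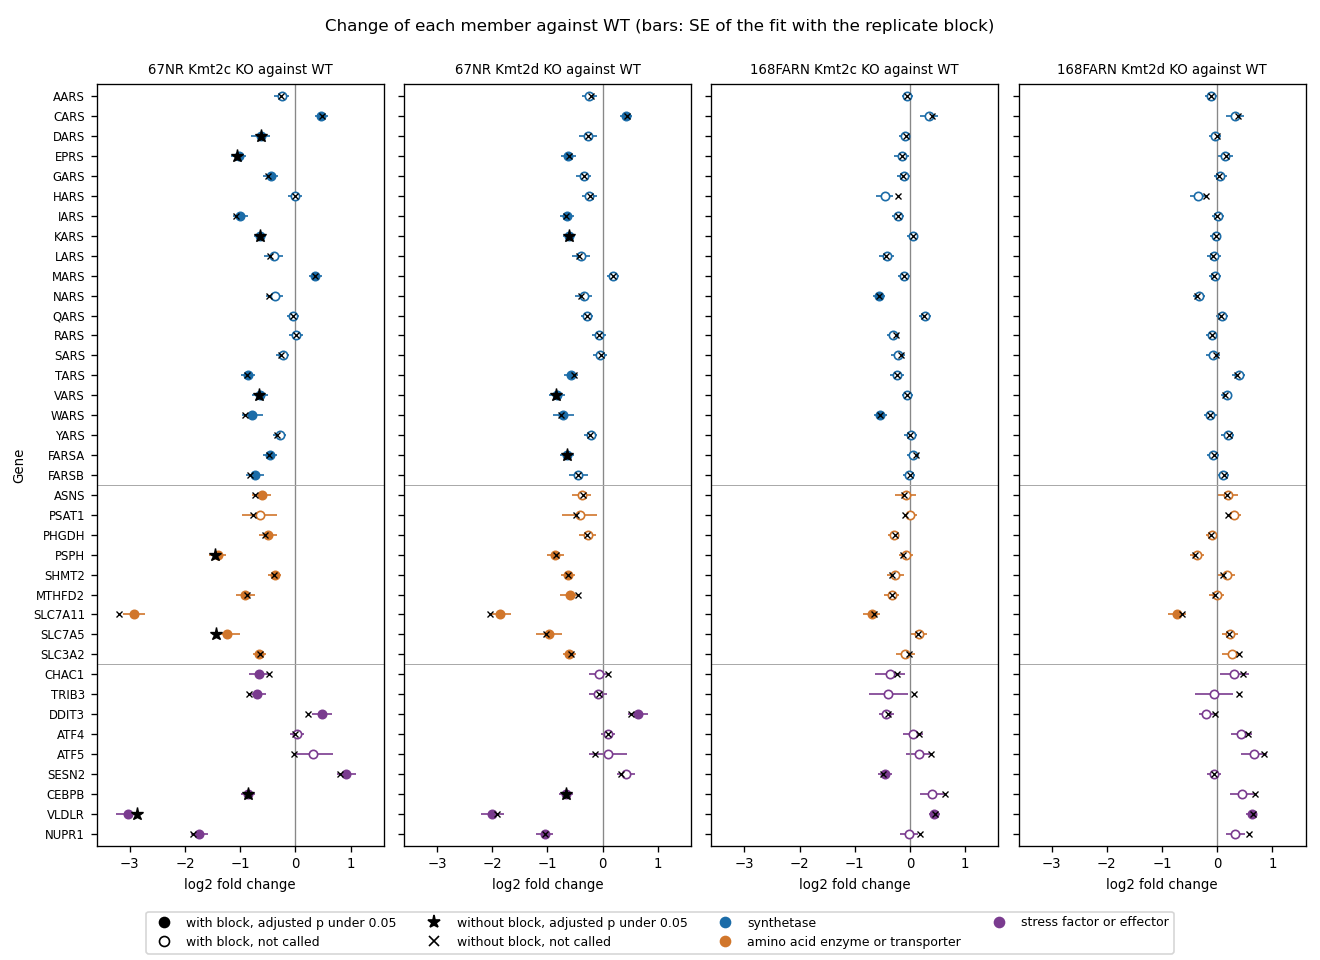
Log2 fold change against WT of each member (rows) in the 4 KO and line comparisons, with circles and bars for the value and standard error with the replicate block, filled where the adjusted p was under 0.05, and black stars (called) or crosses (not called) for the fit without the block. In 67NR most filled circles lie left of 0, with SLC7A11 and VLDLR farthest out, and CARS, DDIT3 and SESN2 right of it, while in 168FARN most circles are open and near 0.

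The 2 KOs were also compared directly. Without the block, 0 of 38 members differed between *Kmt2c* KO and *Kmt2d* KO cells in 168FARN and 0 in 67NR by edgeR (0.171% and 0.659% of all genes), with 1 and 0 at an unadjusted p under 0.05, and DESeq2 called 0 in both. With the block, TARS of 168FARN was lower with *Kmt2c* KO than with *Kmt2d* KO (-0.62, adjusted p = 0.010, where 6.63% of genes were called). TARS stood there at 198, 247 and 337 CPM against 340, 392 and 447 CPM. In 67NR, SLC7A11 (-1.07, adjusted p = 0.0071), VLDLR (-1.03, adjusted p = 0.018) and NUPR1 (-0.69, adjusted p = 0.023) were lower in *Kmt2c* KO cells (3 of 38, where 6.15% of genes were called).

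Whether a KO acted differently in the 2 lines was tested as an interaction over all 18 libraries. The *Kmt2c* KO effect differed for 2 of 38 members without the block, where 11.5% of all genes differed: EPRS (-0.98, standard error 0.30, adjusted p = 0.047) and VLDLR (-3.40, 1.03, adjusted p = 0.043) were more negative in 67NR. Both calls were close to the threshold: EPRS lost it without any single library but WT replicate 3 of 67NR (adjusted p of up to 0.161), and VLDLR in 9 of 12 such fits, all but those without WT replicate 3 or *Kmt2c* KO replicate 2 of 67NR or *Kmt2c* KO replicate 3 of 168FARN (up to 0.103). The *Kmt2d* KO effect differed for 0 of 38 by edgeR and DESeq2, with 5 at an unadjusted p under 0.05, where 7.3% of genes differed. With a block for replicate number within each line, 19 members differed for *Kmt2c* KO, 17 of them more negative in 67NR, and 19 for *Kmt2d* KO, 18 of them more negative in 67NR (50.0% of members each, where 36.3% and 29% of all genes differed). PSPH (-1.41, adjusted p = 4.4e-05), SLC7A5 (-1.49, adjusted p = 0.0016), SLC7A11 (-2.32, adjusted p = 2.8e-06), NUPR1 (-1.81, adjusted p = 1.5e-05) and CEBPB (-1.34, adjusted p = 0.00079) were among the former. DDIT3 (0.83, adjusted p = 0.011) and SESN2 (1.29, adjusted p = 0.00019) were more positive in 67NR.

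WT cells of the 2 lines differed for 7 of 38 members, a smaller share (18.4%) than over all genes (36.5%). CARS (0.75, adjusted p = 0.022), MARS (0.60, adjusted p = 0.0067) and VLDLR (2.64, adjusted p = 0.011) were higher in 168FARN, and EPRS (-0.80, adjusted p = 0.0077), VARS (-1.01, adjusted p = 0.0072), PSPH (-1.49, adjusted p = 0.0021) and SLC7A11 (-3.81, adjusted p = 0.014) were lower. SLC7A11 of WT replicate 3 stood at 16.6 CPM in 168FARN and 19.7 CPM in 67NR, whereas replicates 1 and 2 stood at 25.3 and 26.1 CPM against 451 and 486 CPM. CARS lost its call without 67NR WT replicate 3 (adjusted p = 0.0685) and SLC7A11 without 168FARN WT replicate 3 (0.0512). The lines were sequenced to different depths and one WT carries a control sgRNA, and these differences and the line cannot be told apart.

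Genes around the pathway were counted in the same 67NR fits. There 16.7% of all genes were lower and 17.5% higher for *Kmt2c* KO, and 10.3% and 12.5% for *Kmt2d* KO. With the block these shares were 26.2% and 26.3%, and 20.5% and 21.3%. Of 7 genes for eIF2 kinases, eIF2α and its phosphatase subunits, 0 passed in either KO, with 0 and 1 at an unadjusted p under 0.05. With the block, *Ppp1r15a*, the phosphatase subunit that reverses eIF2α phosphorylation, was higher in both (1.01 and 0.82, adjusted p = 0.0049 and 0.017), and *Eif2ak2* (-0.55 and -0.50) and *Eif2ak1* (-0.37 and -0.51) were lower. Of 24 further ATF4 targets, 2 rose and 1 fell in *Kmt2c* KO cells and 1 rose and 1 fell in *Kmt2d* KO cells, and with the block 4 were higher and 13 lower and 2 higher and 9 lower. *Gdf15*, a secreted stress cytokine, rose in both (2.88 and 2.74, adjusted p = 0.0056 and 0.011), from a WT mean of 0.360 CPM, and *Mthfd1l* fell in both (-1.06 and -0.90, adjusted p = 0.00090 and 0.0035). *Slc1a5*, the glutamine transporter, rose in *Kmt2c* KO cells (0.58, adjusted p = 0.021).

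Of 17 endoplasmic reticulum chaperone and degradation genes, 1 rose in each KO, *Pdia6* (0.99 and 0.80, adjusted p = 0.015 and 0.049), and 0 fell, with medians of -0.20 and 0.01. With the block 4 were lower and 1 higher, and 1 lower and 1 higher. Of 7 NRF2 targets, *Srxn1* rose in both (1.51 and 0.92, adjusted p = 8.7e-05 and 0.0024) and 0 fell, and with the block 1 was higher and 1 lower in each. Of 12 interferon-response genes, 10 fell with *Kmt2c* KO and 8 with *Kmt2d* KO, with medians of -1.95 and -1.43, and with the block 10 and 8 were lower and 2 and 1 higher. The largest changes were in *Ifit1* (-4.21 and -2.68, adjusted p = 2.6e-05 and 0.00039), and in *Kmt2c* KO cells in *Psmb8* (-3.81) and *Psmb9* (-2.89). WARS, known as an interferon-induced synthetase, stood beside them at 184, 173 and 61.4 CPM for WT and 86.8, 76.9 and 57.4 CPM for *Kmt2c* KO cells. It did not pass on genotype alone (-0.92, adjusted p = 0.14) and passed with the block (-0.78, adjusted p = 0.0049). Leukocyte markers summed to 22.3, 21.5 and 36.1 CPM in the WT libraries, 71.3, 64.6 and 19.3 CPM with *Kmt2c* KO and 71.7, 82.2 and 25.6 CPM with *Kmt2d* KO, so they were higher than WT in replicates 1 and 2 and lower in replicate 3. Only 1 of the 3 leukocyte markers averaged above 1 CPM in each group. The part in the members' differences of these markers, of the interferon genes and of the epithelial markers that were lower in the same KOs was not tested.

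In 168FARN, edgeR called 0 of these genes in either KO without the block. Of all 12253 genes, 725 (*Kmt2c* KO) and 647 (*Kmt2d* KO) had an unadjusted p under 0.05. At an unadjusted p under 0.05 there were, for *Kmt2c* KO and *Kmt2d* KO respectively, 1 and 0 of 23 ATF4 targets, 0 and 0 of 17 chaperones, 1 and 1 of 17 mitochondrial synthetases, 0 and 1 of 7 eIF2 genes, 1 and 1 of 7 NRF2 targets, 0 and 0 of 3 scaffold genes and 1 and 6 of 12 interferon-response genes. With the block, 6 of 12 interferon-response genes were lower in *Kmt2d* KO cells, led by *Irf7* (-2.45, adjusted p = 7.4e-05), where 410 of all 12253 genes were lower. In *Kmt2c* KO cells 633 of all 12253 genes were lower with the block. Among them were 3 of 17 mitochondrial synthetases, 1 of 17 chaperones and 1 of 12 interferon-response genes. In *Kmt2d* KO cells 1 of 7 eIF2 genes (*Eif2ak2*) was lower with the block, and in each KO 1 of 7 NRF2 targets. In both KOs 2 of 23 ATF4 targets were then lower, among them *Aldh1l2* (-0.87 and -0.55, adjusted p = 0.0019 and 0.028).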

How the data were processed

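The authors aligned reads of stranded mRNA libraries (STAR, mm9, VIPER pipeline) and deposited read counts per gene symbol without normalization, in 1 table for each line. The strand setting, the annotation and the STAR version are not given in the sources used here. Their own test, DESeq2, used genotype as its factor. For heatmaps only, they removed batch effects between replicates with limma, with each collection time as a batch. In the 67NR table, 27 rows carry a date in place of a symbol, and none is a member.

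From these counts, edgeR 4.0.16 (R 4.3.3, limma 3.58.1) fitted the 9 libraries of a line by genotype, with TMM normalization, filterByExpr, robust quasi-likelihood dispersions and Benjamini-Hochberg adjustment over 12253 genes (168FARN) or 13665 genes (67NR). Interactions and WT against WT used the 18 libraries and 13882 genes. Genes were called at an adjusted p under 0.05. Standard errors are the log2 fold change divided by the root of F. Differences of replicate 3 used log2(CPM + 0.5). The fits were also run on simulated counts, with criteria for passing set only for fits with the block. The simulation gave libraries of the same number a shared level, so it cannot show whether the numbers pair libraries.

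The members and lists were chosen with earlier results of these data known. Every member could be named, and of each other list at most 3 genes past the threshold in a comparison. Replicate numbers are in the labels. Deviations from the group mean of libraries with the same number correlated at 0.73 to 0.92 between genotypes in 168FARN. In 67NR they correlated at 0.47 to 0.82. The numbers were taken to pair libraries within a line, but these correlations cannot show that pairing beyond replicate 3. Replicate 3 stood apart in every genotype, so such values can arise however the other replicates are numbered. Correlations between libraries of different numbers were not compared with them. For the other replicates, the pairing used by the block therefore rests on the labels. Alternatives were the block, DESeq2 1.42.0, its size factors in edgeR, no filter, no robust dispersion, a threshold of 0.1 on the adjusted p together with 0.6 on the absolute log2 fold change, the 6 libraries compared, no replicate 3, and each library left out. Leaving out libraries with the block was added after seeing the data. Exon lengths and overlaps came from GENCODE on mm9, by symbol, with all 38 members found. Promoters are RefSeq, GRCm38.p6. The counts were read by column name, and 0 columns were left over.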

Additional observations from a re-analysis of the deposited data

Results flagged for a closer look

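The effect of *Kmt2c* KO differed between the lines by the interaction test for EPRS (-0.98, with -1.05 in 67NR and -0.15 in 168FARN) and for VLDLR (-3.40, with -2.88 and 0.44). Both calls were lost in most fits that left out a single library, as given above. In further cases all 3 same-numbered pairs of libraries moved one way in 67NR and the other way in 168FARN, while the interaction without the replicate block did not pass. For *Kmt2c* KO these were DDIT3 (0.56, adjusted p = 0.91) and SESN2 (1.21, adjusted p = 0.38), higher in 67NR and lower in 168FARN. For *Kmt2d* KO these were TARS (-0.94, adjusted p = 0.42), VARS (-1.05, adjusted p = 0.11) and VLDLR (-2.62, adjusted p = 0.15), lower in 67NR and higher in 168FARN. With the block all 7 interactions passed in edgeR, with adjusted p from 2.9e-10 (VLDLR, *Kmt2c* KO) to 0.011 (DDIT3, *Kmt2c* KO). The cases were picked by interactions or by same-numbered pairs in these same libraries, and the block compares those pairs again. Their passing with the block is therefore no further support.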

How the results depend on the processing

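Counts of called members moved most with the replicate block and with replicate 3. Called members rose with the block to 1 higher and 4 lower in 168FARN *Kmt2c* KO, 1 and 1 in 168FARN *Kmt2d* KO, 4 and 23 in 67NR *Kmt2c* KO, and 2 and 16 in 67NR *Kmt2d* KO cells, to 1 and 3 between the KOs in 168FARN and 67NR, and to 19 and 19 for the interactions. Between lines, same-numbered libraries correlated at 0.07 to 0.48, not all above 0.1, so the numbers were not taken as pairs there. A block for the number shared by both lines gave 16 members for WT against WT, and the share of all genes in that fit was not counted. The counts that follow are from fits without the block. With libraries left out (each alone, or replicate 3 in all groups), counts ranged from 0 to 7 higher and 0 to 10 lower in 168FARN *Kmt2c* KO, 0 to 15 and 0 to 1 in 168FARN *Kmt2d* KO, 0 to 2 and 3 to 29 in 67NR *Kmt2c* KO, and 0 to 2 and 1 to 26 in 67NR *Kmt2d* KO cells, from 0 to 18 between the KOs in each line, 0 to 31 and 0 to 28 for the interactions of *Kmt2c* and *Kmt2d* KO, and 7 to 34 for WT against WT. Among single libraries in these fits, 67NR WT replicate 3 had the largest pull, with 16 and 10 lower members without it in 67NR *Kmt2c* and *Kmt2d* KO. The highest counts came from fits without replicate 3 in all groups, where KO against WT called more of all genes too. In 168FARN *Kmt2c* KO that share rose from 0.188% to 29.5%. For the KOs against each other, the interactions and WT against WT, that share without replicate 3 is not given. It was not counted with 1 library left out or under the other settings, so those counts alone say nothing particular about the members. With the block, counts in 168FARN also moved when a single replicate 3 library was left out, as given above. DESeq2 gave 1 lower member in 168FARN *Kmt2c* KO, 7 in 67NR *Kmt2d* KO and 4 for the *Kmt2c* interaction. The threshold with a fold change gave 7 lower in 67NR *Kmt2d* KO and 4 for the *Kmt2c* interaction, which also gave 1 with DESeq2's size factors and 0 without the filter on low counts. The 6 libraries compared gave 2 lower in 67NR *Kmt2d* KO. The cause of these shifts was not tested, although fits on fewer libraries hold fewer residual degrees of freedom. Of the member comparisons followed singly, those of CHAC1 and DDIT3 in 67NR changed sign and the others did not. With libraries left out, CHAC1 ranged from -1.003 to 0.014 (without *Kmt2c* KO replicate 3), DDIT3 in *Kmt2c* KO from -0.28 (without WT replicate 3) to 0.68, with -0.12 when *Kmt2c* KO replicate 1 was missing, and DDIT3 in *Kmt2d* KO from -0.0065 (without WT replicate 3) to 0.995, and the difference of the latter between lines ranged from -0.029 (without 67NR WT replicate 3) to 1.06. The lowest levels, and so the least precise values, were those of VLDLR in 67NR KO cells.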
